A study of Oryza sativa with 12 samples.

Results

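Respiratory burst oxidase homologues (RBOH) are the NADPH oxidases of plants. The 6 rice genes described here were taken by locus identifier: RBOHA (LOC_Os01g53294), RBOHB (LOC_Os01g25820), RBOHC (LOC_Os05g45210), RBOHE (LOC_Os01g61880), RBOHH (LOC_Os12g35610) and RBOHI (LOC_Os11g33120). They are 6 of the 55986 entries in each count file. The rice family has further members, which are not analysed here. Of the 6 genes, 5 passed the filter on low counts that left 22833 genes for testing, and RBOHH did not.

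RBOH enzymes sit in the plasma membrane and pass electrons from NADPH in the cytosol to oxygen in the cell wall space, where superoxide and then hydrogen peroxide form. Calcium binding, phosphorylation by calcium-dependent kinases and other kinases, and RAC GTPases, small switch proteins, turn the enzymes on. In leaves the reactive oxygen they make is known to act in the closure of stomata by abscisic acid and in the response to pathogens.

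Transcripts were sequenced from rice (Oryza sativa) of the cultivar IAPAR9, as wild type and as the mutant idr1-1, whose lesion is known to lie in RGA1, the gene for the Gα subunit. All plants were 5 weeks old, at the stage with 5 leaves, and grew in concrete tanks, either without stress (control) or with water withheld until the soil held 10% moisture (drought). With 3 biological replicates each, the 4 groups gave 12 libraries, namely wild type in control and in drought and idr1-1 in control and in drought. The tissue is given as leaf, while the extraction protocol speaks of seedlings. How many plants went into a library, and whether replicates shared a tank, is not given in the sources used here, so p-values measure the spread between these samples, part of which may be technical.

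A library held 19100444 to 25109848 counts over 28871 to 30190 genes with a count. As a check of the genotype, RGA1 had 25.4 to 31.5 normalised CPM (the count scaled to a common library size) in wild type control and 11.1 to 12.5 in idr1-1 control, and 23.9 to 26.9 against 11.1 to 14.1 under drought, so all 6 libraries labelled idr1-1 lay below all 6 labelled wild type. The leaf markers CAB1R, CAB2R and RCA, which encode light-harvesting proteins and Rubisco activase, summed to 15284.5 CPM or more in every library. Of the root markers LSI2 had 0 counts in every library, and LSI1 had 3.94 to 20.3 CPM. The inflorescence markers MADS1 and MADS14 summed to 1.77 to 4.20 CPM in control and to 0.778 or less under drought. Replicate 3 of idr1-1 drought stood apart from its group, with a correlation of log2 CPM of 0.966 and 0.951 to the other replicates where pairs in the other 3 groups reached 0.983 to 0.988, and results that rest on it are given with and without it.

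Gene lengths were not used, so each gene is compared with itself across the 4 groups and not with the other genes. In this bulk RNA, fewer cells of a type and less RNA per cell cannot be told apart.

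RBOHA transcripts rose under drought in both genotypes. In rice RBOHA is known from work on growth and drought tolerance. In wild type it had 23.6, 17.9 and 21.7 normalised CPM in control replicates 1, 2 and 3, and 42.4, 37.1 and 41.5 under drought. In idr1-1 it had 14.5, 16.4 and 13.8 in control and 37.3, 36.7 and 30.1 under drought. All 6 drought libraries lay above all 6 control libraries. The mean went from 21.1 ± 2.93 to 40.3 ± 2.84 CPM in wild type and from 14.9 ± 1.36 to 34.7 ± 4.00 in idr1-1 (SD, n = 3 each), a fitted rise of 1.92-fold and 2.33-fold. On the log2 scale these were 0.94 (SE 0.12) and 1.22 (SE 0.12), with adjusted p = 9.8e-05 and 2.3e-05 by the quasi-likelihood test of edgeR, with Benjamini-Hochberg adjustment over all genes tested. Without idr1-1 drought replicate 3, the lowest of its group, the rise in idr1-1 was 1.31.

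The control level of RBOHA was lower in idr1-1 than in wild type. All 3 idr1-1 control libraries lay below the 3 wild type ones, the nearest being 16.4 against 17.9 CPM. The log2 difference was -0.50 (SE 0.12), with adjusted p = 0.031 by edgeR's quasi-likelihood test. This call was lost when wild type control replicate 1 or 3 or idr1-1 control replicate 1 or 3 was left out (edgeR adjusted p = 0.12, 0.089, 0.087 and 0.12), while the difference ran from -0.61 to -0.42 over the libraries left out in turn. Under drought the ranges overlapped and the difference was -0.22 (95% interval -0.48 to 0.04, edgeR adjusted p = 0.45). The drought responses of the genotypes differed by 0.28 (95% interval -0.09 to 0.66, edgeR adjusted p = 0.46), which leaves room for a response up to 0.66 larger in idr1-1.

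**Figure D1:**
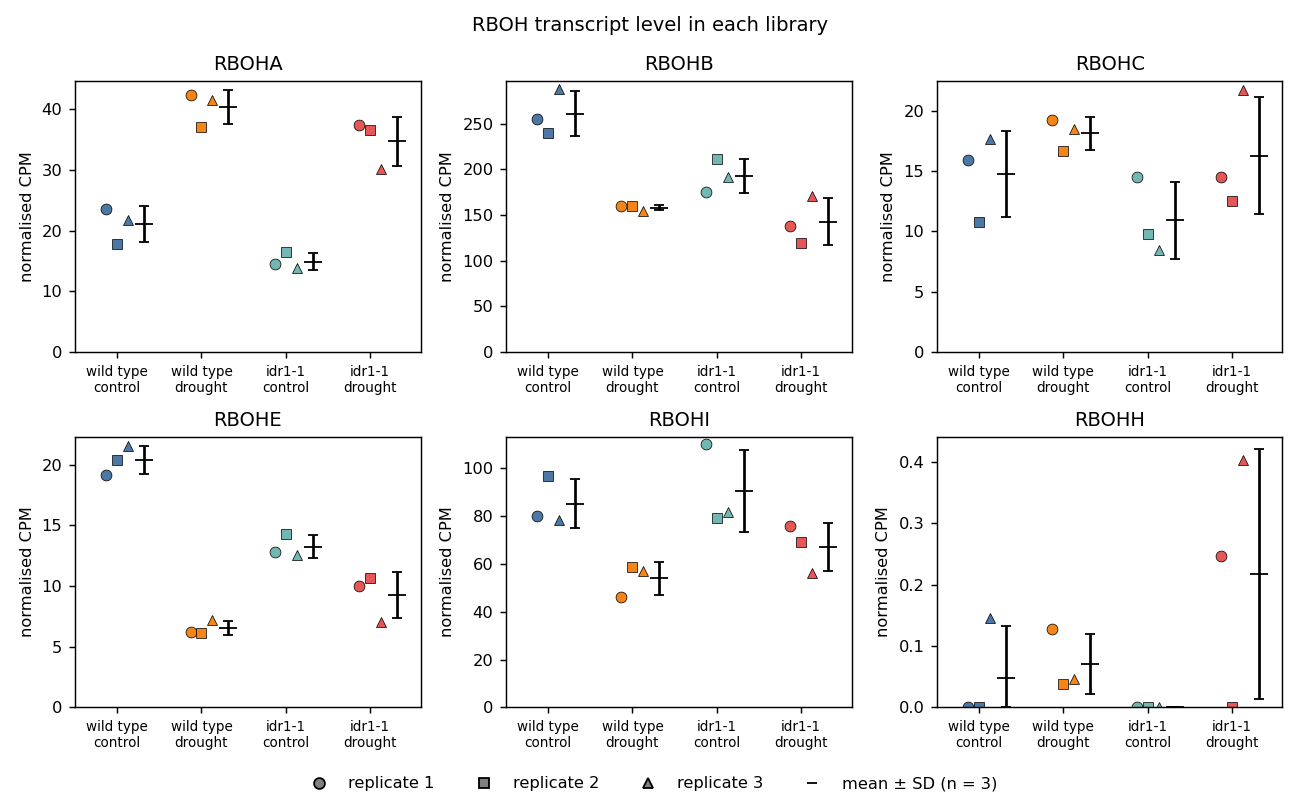
Normalised CPM of each RBOH gene (vertical axis, linear from 0, a separate scale per gene) in the 4 groups (horizontal axis), with symbols for replicates 1, 2 and 3 and a bar for the mean ± SD (n = 3). RBOHA lies higher in every drought library than in any control library, RBOHE runs from about 20.4 CPM in wild type control to 6.52 in wild type drought, and RBOHH is near 0 throughout.

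RBOHE transcripts fell under drought in both genotypes, 3.12-fold in wild type and 1.43-fold in idr1-1. No role of RBOHE in rice leaves is given here; its Arabidopsis namesake is known from the tapetum, the nurse tissue of pollen. Wild type control libraries had 19.2, 20.4 and 21.5 CPM and wild type drought libraries 6.21, 6.16 and 7.20. The idr1-1 control libraries had 12.8, 14.3 and 12.6 and the idr1-1 drought libraries 10.0, 10.7 and 7.08. The drought libraries lay below the control libraries in each genotype with no overlap, and wild type drought lay below idr1-1 drought except for idr1-1 replicate 3, which fell inside the wild type range.

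The fall of RBOHE in wild type was -1.64 on the log2 scale (SE 0.14), with adjusted p = 5.8e-06 by edgeR's quasi-likelihood test. It was the largest change among the 5 tested RBOH genes in any of the 4 contrasts between groups, and 10.4% of all tested genes had a larger change in wild type. In idr1-1 it was -0.52 (SE 0.14, edgeR adjusted p = 0.015). Without idr1-1 control replicate 2 the latter was -0.46 and no longer called (edgeR adjusted p = 0.054), a fit of only the 2 groups gave -0.50 and no call (edgeR adjusted p = 0.067), and without idr1-1 drought replicate 3 it was -0.36 (edgeR adjusted p = 0.023).

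The test of the difference between these responses of RBOHE did not pass the threshold with all libraries, and did with some left out. The idr1-1 response minus the wild type response was 1.13 on the log2 scale (SE 0.20, 95% interval 0.69 to 1.57), with an unadjusted edgeR p of 0.00013, rank 39 of 22833 genes, and an adjusted p = 0.069. Leaving out idr1-1 drought replicate 3 gave 1.28 (edgeR adjusted p = 0.0071). Without idr1-1 control replicate 2 it was 1.18 (edgeR adjusted p = 0.038), and without idr1-1 drought replicate 2 it was 1.01 (edgeR adjusted p = 0.03). DESeq2's Wald test gave 1.14 with adjusted p = 0.00028, and edgeR without the filter on low counts gave 1.13 with adjusted p = 0.045. Over 18 alternatives the value stayed between 1.01 and 1.28 and was called in 5. The fit with all libraries called 11 of 22833 genes for this difference. The alternatives varied widely in that count, as given at the end, so a call in one of them is not particular to RBOHE.

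Between genotypes, RBOHE was lower in idr1-1 in control and was not called under drought. In control idr1-1 had 13.3 ± 0.935 against 20.4 ± 1.17 CPM, a log2 difference of -0.62 (SE 0.14, edgeR adjusted p = 0.022) with no overlap. That call was lost without wild type control replicate 1 or 3 or idr1-1 control replicate 1 or 3 (edgeR adjusted p = 0.063, 0.071, 0.069 and 0.093). Under drought idr1-1 had 9.27 ± 1.93 against 6.52 ± 0.584 CPM, a difference of 0.51 (95% interval 0.19 to 0.82) that was not called (edgeR adjusted p = 0.17). It was 0.66 and called without idr1-1 drought replicate 3 (edgeR adjusted p = 0.011), in a fit that called 1074 of 23197 genes for this contrast against 42 of 22833 with all libraries.

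RBOHB transcripts fell under drought in both genotypes. RBOHB is known in rice as an oxidase bound by RAC1 in the response to pathogens. It had 255, 240 and 288 CPM in wild type control and 160, 159 and 155 in wild type drought. In idr1-1 it had 175, 212 and 192 in control and 138, 120 and 171 under drought. Control and drought did not overlap in either genotype, though in idr1-1 the gap was narrow, 175 against 171 CPM. The wild type mean fell from 261 ± 24.6 to 158 ± 3.00 CPM, 1.65-fold, and the idr1-1 mean from 193 ± 18.4 to 143 ± 25.9, 1.35-fold (SD, n = 3).

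The log2 values for RBOHB were -0.72 (SE 0.13) in wild type and -0.43 (SE 0.13) in idr1-1, with adjusted p = 0.0011 and 0.024 by edgeR's quasi-likelihood test. Leaving out idr1-1 control replicate 2 or 3 or idr1-1 drought replicate 1 or 2 ended the call in idr1-1 (edgeR adjusted p = 0.092, 0.057, 0.069 and 0.083), as did scaling by library size only (0.084) and a fit of only the 2 groups (0.12), and the call held in 7 of 13 alternatives. Leaving out idr1-1 drought replicate 3, the highest of its group, gave -0.59 (edgeR adjusted p = 0.0017). The genotype difference in control was -0.44 with no overlap and was not called (edgeR adjusted p = 0.056), but DESeq2 called it (adjusted p = 0.013), as did an edgeR fit of only the 2 groups (adjusted p = 0.027). Under drought it was -0.15 (95% interval -0.44 to 0.14, edgeR adjusted p = 0.67), and the responses differed by 0.29 (95% interval -0.12 to 0.70, edgeR adjusted p = 0.49).

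RBOHI transcripts fell under drought in wild type. The wild type libraries had 80.2, 96.9 and 78.4 CPM in control and 46.2, 58.8 and 56.9 under drought. The idr1-1 libraries had 110, 79.3 and 81.8 in control and 76.0, 69.3 and 56.2 under drought. Drought lay below control without overlap in both genotypes. The log2 change was -0.66 in wild type (SE 0.16, edgeR adjusted p = 0.0057) and -0.43 in idr1-1 (SE 0.16), where it missed the threshold by edgeR's quasi-likelihood test (adjusted p = 0.054). DESeq2 called the fall in idr1-1 (adjusted p = 0.041), and so did edgeR with scaling by library size only (adjusted p = 0.022). Without idr1-1 control replicate 2 or idr1-1 drought replicate 1 the idr1-1 value was also called (edgeR adjusted p = 0.047 and 0.044), and without idr1-1 drought replicate 3 it was -0.32 (edgeR adjusted p = 0.14). RBOHI was the 1 tested gene of the family with a higher idr1-1 mean in control, 90.4 ± 17.1 against 85.2 ± 10.2 CPM, and those ranges overlapped (edgeR adjusted p = 0.76).

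RBOHC was not called in any comparison with all libraries. It had 15.9, 10.8 and 17.7 CPM in wild type control, 19.3, 16.6 and 18.5 in wild type drought, 14.6, 9.76 and 8.46 in idr1-1 control and 14.5, 12.5 and 21.8 in idr1-1 drought. The ranges overlapped in all 4 contrasts between groups. The drought values were 0.30 in wild type (95% interval -0.24 to 0.83, edgeR adjusted p = 0.35) and 0.57 in idr1-1 (95% interval 0.03 to 1.12, edgeR adjusted p = 0.096). Without idr1-1 control replicate 1 the idr1-1 value was 0.84 and was called (edgeR adjusted p = 0.033). Without idr1-1 drought replicate 2 the idr1-1 value was 0.73 and was called just under the threshold (edgeR adjusted p = 0.05 after rounding). Without idr1-1 drought replicate 3, which had the highest RBOHC value of all 12 libraries, it was 0.30 (edgeR adjusted p = 0.36).

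RBOHH, known in rice for the formation of air spaces in roots, was close to absent from these libraries. It had 0, 0 and 3 counts in wild type control, 3, 1 and 1 in wild type drought, 0, 0 and 0 in idr1-1 control and 5, 0 and 9 in idr1-1 drought. Summed over replicates, wild type went from 3 to 5 counts, a depth-scaled ratio of 1.56 with an exact 95% counting interval of 0.303 to 10.0. In idr1-1 drought 14 counts stood against 0 in idr1-1 control. The level was 4.45-fold a floor of 3 counts summed over that control group (0.0498 CPM). This is no lower limit, since the exact 95% counting interval of the ratio starts at 3.16. Without replicate 3, which held 9 of the 14 counts, these values were 2.46 and 1.35. Intervals and floors cover counting error only.

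**Figure D2:**
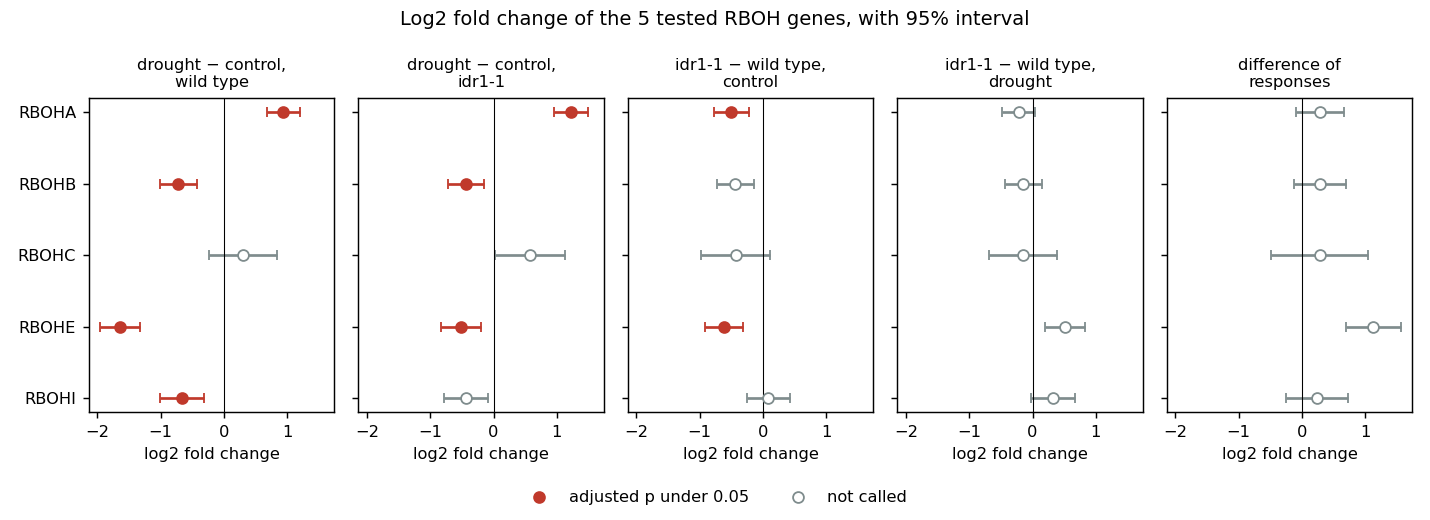
Log2 fold change (horizontal axis) of the 5 tested RBOH genes (vertical axis) in the 5 comparisons, with 95% intervals from the edgeR fit to all libraries (3 replicates per group). Filled red points passed an adjusted p of 0.05 by edgeR. RBOHA is to the right of 0 under drought in both genotypes, RBOHB, RBOHE and RBOHI are to the left, and no point is filled for genotype under drought or for the difference of responses.

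Counted over the family, drought in wild type raised 1 tested RBOH gene (RBOHA) and lowered 3 (RBOHB, RBOHE and RBOHI) of 5, where 43.9% of all tested genes were called, 22.4% higher and 21.5% lower. In idr1-1 drought raised 1 (RBOHA) and lowered 2 (RBOHB and RBOHE) of 5, with 35.6% of all genes called, 18.0% higher and 17.6% lower. Groups did not overlap for the same 4 genes in each genotype, against 59.7% of all tested genes in wild type and 44.6% in idr1-1. With so many genes called, these family counts do not set the RBOH genes apart from the rest. The median log2 change of the 5 genes was -0.66 in wild type and -0.43 in idr1-1, with 0.00 and 0.01 over all tested genes.

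Between genotypes in control 0 tested RBOH genes were higher and 2 (RBOHA and RBOHE) lower in idr1-1, with 10.5% of all genes called, 5.54% higher and 4.93% lower. RBOHA, RBOHB and RBOHE did not overlap between genotypes in control, against 39.1% of all genes. The median of the 5 log2 differences was -0.44, and 0.00 over all tested genes. Between genotypes under drought 0 of 5 RBOH genes were called, with 0.184% of all genes called, and the groups overlapped for all 5, while they did not for 15.1% of all genes. RBOHE had an unadjusted edgeR p of 0.0047 in that contrast. For the difference of responses 0 of 5 were called by edgeR and 1 (RBOHE) by DESeq2, with 0.0482% of all genes called by edgeR. DESeq2 called many more genes for this difference, as given at the end, so that share does not apply to its RBOHE call. The median difference of responses of the 5 genes was 0.28, against -0.01 over all tested genes. The genotype contrasts and the difference of responses share libraries with the drought contrasts, so none of these counts is independent of the others.

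Markers of cells with secondary walls differed between genotypes in control and rose under drought in idr1-1. CESA4, CESA7 and CESA9, cellulose synthases of the secondary wall, summed to 26.6 to 38.1 CPM in wild type control and 26.3 to 43.4 in wild type drought. They summed to 3.80 to 14.9 in idr1-1 control and 46.8 to 72.8 in idr1-1 drought. All 3 were called lower in idr1-1 control than in wild type control, where 4.93% of all tested genes were lower. All 3 were called higher under drought within idr1-1, where 18.0% of all tested genes were higher. With all libraries 0 of the 3 markers were called between genotypes under drought or for the difference of responses. Without idr1-1 drought replicate 3 all 3 markers were called for the difference of responses. The fit with all libraries called 0.0482% of all tested genes for that difference, and this share does not apply to the refit. Refits with 1 library left out varied widely in how many genes they called, as given at the end. Their part in the lower control levels of RBOHA and RBOHE and in the idr1-1 drought values was not tested.

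Library choice decided several RBOH results, and the plot of values with each library left out shows where. In idr1-1 drought replicate 3, RBOHA, RBOHE and RBOHI were the lowest of their group and RBOHB and RBOHC the highest. Its RBOHE value of 7.08 CPM and its RBOHI value of 56.2 CPM lay within the wild type drought range, while its RBOHB value of 171 CPM lay above the wild type drought maximum of 160. Calls that held with each library left out in turn, and in all 13 alternatives, were the wild type drought calls of RBOHA, RBOHB, RBOHE and RBOHI and the idr1-1 drought call of RBOHA.

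**Figure D3:**
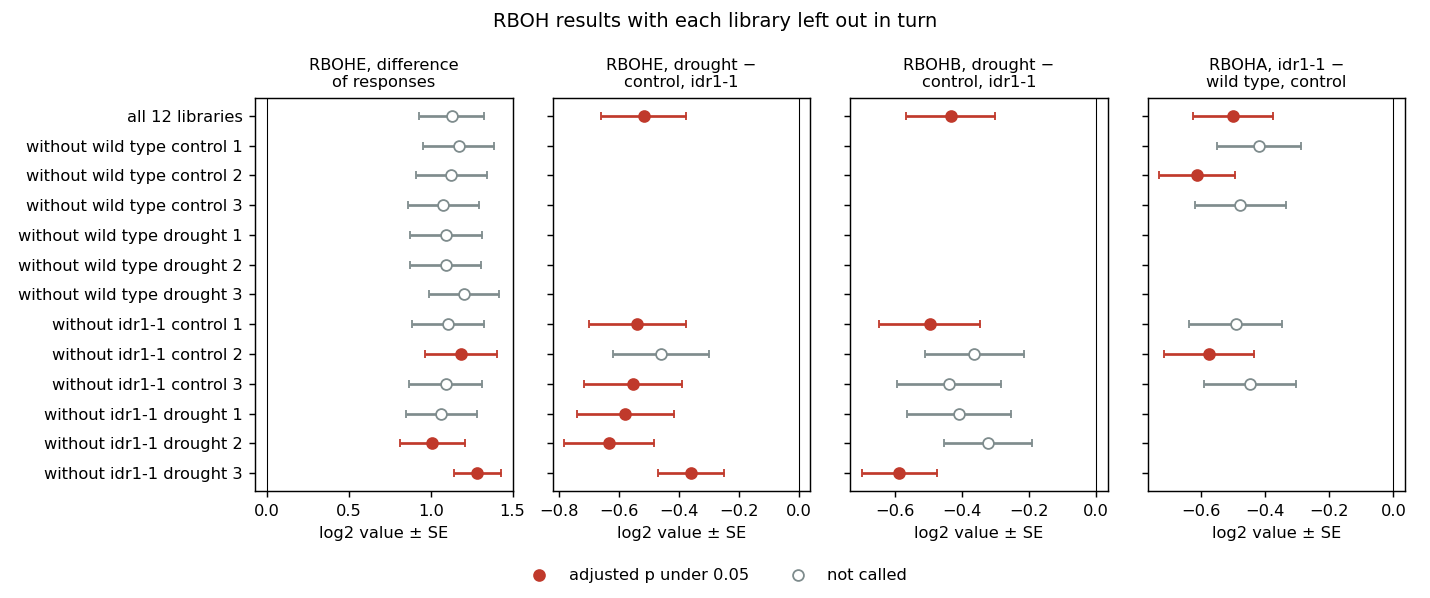
Log2 value ± SE (horizontal axis) of 4 RBOH results with all 12 libraries and with each library of the comparison left out (vertical axis); filled red points passed an adjusted p of 0.05 by edgeR. The RBOHE difference of responses stays between 1.01 and 1.28 and passes in 3 of the 12 refits, while the RBOHA control difference keeps its sign and loses the call in 4.

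RAC GTPases, a family known to bind and activate RBOH proteins in rice, were measured as 7 genes, of which 6 were tested. Whether each of them acts on an RBOH protein was not tested. Drought in wild type raised 1 (RAC1) and lowered 0, and drought in idr1-1 raised 3 (RAC1, RAC4 and RAC6) and lowered 0. Over all tested genes 22.4% rose and 21.5% fell in wild type, and 18.0% rose and 17.6% fell in idr1-1, so the wild type count is near the background. RAC1, the partner of RBOHB, rose from 6.37 ± 0.598 to 8.65 ± 0.640 CPM in wild type, a log2 change of 0.44 (SE 0.14, edgeR adjusted p = 0.021). In idr1-1 it rose from 4.68 ± 0.667 to 10.4 ± 1.18, a log2 change of 1.16 (SE 0.14, edgeR adjusted p = 7.4e-05). All drought libraries lay above all control libraries of the same genotype for RAC1.

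RAC6 rose in idr1-1 drought from 2.64 ± 1.07 to 6.86 ± 1.82 CPM, a log2 change of 1.38 (SE 0.28, edgeR adjusted p = 0.0028). RAC4 rose there from 4.02 ± 0.869 to 7.82 ± 1.64 CPM, a log2 change of 0.96 (SE 0.20, edgeR adjusted p = 0.0035). Both were lower in idr1-1 than in wild type in control, RAC6 by a log2 difference of -1.10 (edgeR adjusted p = 0.035) and RAC4 by -0.73 (edgeR adjusted p = 0.045), with no overlap. In that contrast 4.93% of all tested genes were lower and 39.1% did not overlap. Refits without a control library were not read for genes outside the RBOH family. The differences between the genotypes' responses were 1.30 for RAC6, 1.17 for RAC4 and 0.72 for RAC1 and did not pass (edgeR adjusted p = 0.16, 0.11 and 0.13). The median log2 change of the 6 RAC genes was -0.00 in wild type and 0.50 in idr1-1. The count for drought in idr1-1 was again 3 raised and 0 lowered without idr1-1 drought replicate 3, a refit to which the shares above do not apply.

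Calcium-dependent kinases, which phosphorylate RBOH proteins, were measured as 18 genes, of which 16 were tested. Drought in wild type raised 2 and lowered 11, with a median log2 change of -0.51, where 22.4% of all tested genes rose, 21.5% fell and the median was 0.00. In idr1-1 drought raised 2 and lowered 9, with a median of -0.34. Over all tested genes 18.0% rose and 17.6% fell there, and the median was 0.01. Without idr1-1 drought replicate 3, drought raised 2 and lowered 10 in idr1-1, and those shares do not apply to that refit. CPK9 rose in wild type from 10.7 ± 1.39 to 24.2 ± 2.66 CPM, a log2 change of 1.18 (SE 0.19, edgeR adjusted p = 0.0004). In idr1-1 it rose by 0.61 (edgeR adjusted p = 0.022), though the control and drought ranges overlapped. CPK24 had 118 ± 7.18 CPM in wild type control and 62.4 ± 0.534 under drought (edgeR adjusted p = 5.4e-05), and in idr1-1 it fell from 114 ± 9.44 to 66.6 ± 10.1, a log2 change of -0.78 (SE 0.11, edgeR adjusted p = 0.00024).

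CPK18 fell in idr1-1 from 28.7 ± 3.13 to 16.4 ± 4.62 CPM, a log2 change of -0.81 (edgeR adjusted p = 0.0028). In wild type it changed by -0.72 (edgeR adjusted p = 0.0043). CPK6 fell in both genotypes, by -1.32 in wild type (edgeR adjusted p = 0.0024) and by -0.89 in idr1-1 (edgeR adjusted p = 0.032), and CPK29 rose in wild type by 1.52 (edgeR adjusted p = 0.019), both from under 1 CPM in every group mean. In control 0 of the 16 were higher in idr1-1 and 2 were lower, CPK3 by a log2 difference of -0.81 (edgeR adjusted p = 0.029) and CPK7 by -0.46 (edgeR adjusted p = 0.025). Over all tested genes 10.5% were called in that contrast, 5.54% higher and 4.93% lower, so this count is near the background.

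Of 6 other kinases tied to RBOH activation, namely SAPK8, SAPK9, SAPK10, DMI3, MPK1 and MPK5, drought raised 0 and lowered 2 in wild type, and raised 0 and lowered 1 in idr1-1. These counts do not exceed the shares of all tested genes called, 43.9% and 35.6%. SAPK9, a kinase of abscisic acid signalling in the SnRK2 family, fell from 43.2 ± 4.78 to 4.64 ± 1.01 CPM in wild type, a log2 change of -3.22 (SE 0.15, edgeR adjusted p = 9.1e-08). In idr1-1 it fell from 37.2 ± 1.73 to 4.87 ± 0.525, a log2 change of -2.93 (SE 0.15, edgeR adjusted p = 2.3e-07). MPK1, a mitogen-activated protein kinase, fell in wild type by -0.53 on the log2 scale (edgeR adjusted p = 0.00023) and was lower in idr1-1 than in wild type in control by -0.35 (edgeR adjusted p = 0.02). Without idr1-1 drought replicate 3 the count lowered in idr1-1 was 2, and 1 was lower in idr1-1 than in wild type under drought. The shares above do not apply to that refit. For genotype under drought that refit called many more genes than the fit with all libraries, as given above for RBOHE.

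The chitin receptor genes CERK1 and CEBiP, whose products signal to RBOH enzymes when fungal chitin is sensed, both fell in wild type drought, by -0.38 (edgeR adjusted p = 0.0043) and -0.33 (edgeR adjusted p = 0.038) on the log2 scale. In idr1-1 0 of 2 were called, with -0.18 and -0.03, though CERK1 did not overlap between control and drought there. Over all tested genes 21.5% fell in wild type and 17.6% in idr1-1. FRO1, a ferric reductase of the same membrane oxidoreductase superfamily, rose from 41.1 ± 6.07 to 287 ± 49.3 CPM in wild type and from 32.7 ± 1.93 to 235 ± 55.4 in idr1-1. These were log2 changes of 2.80 (edgeR adjusted p = 8.8e-07) and 2.84 (edgeR adjusted p = 1.1e-06). With all libraries no gene of these lists was called between genotypes under drought or for the difference of responses, contrasts that called 0.184% and 0.0482% of all tested genes, so a count of 0 says little about these lists.

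**Figure D4:**
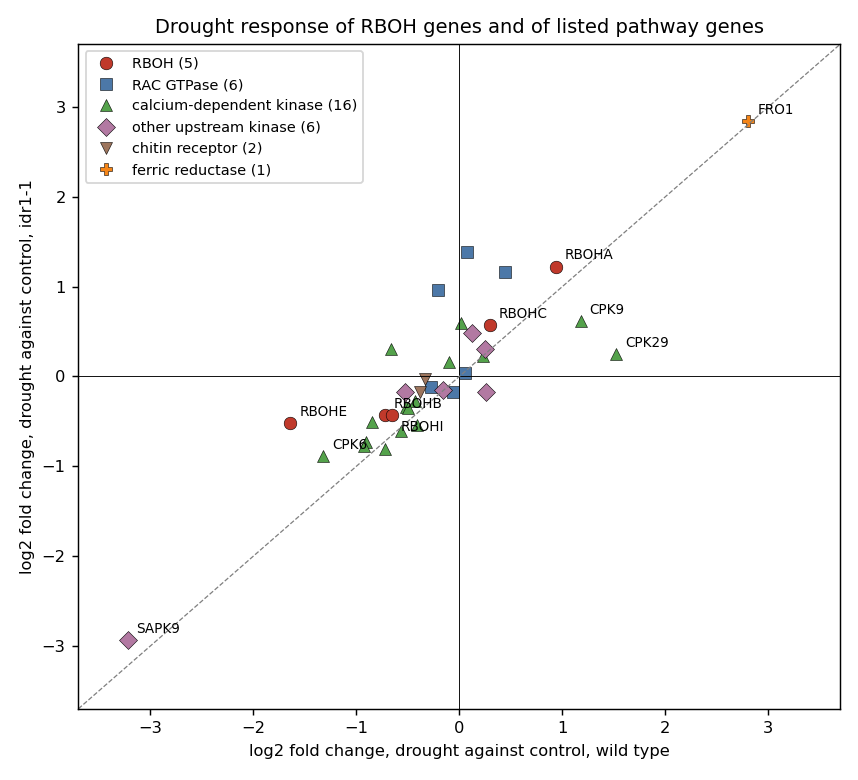
Log2 fold change of drought against control in wild type (horizontal axis) and in idr1-1 (vertical axis) for the tested RBOH genes and the tested genes of the listed groups, 1 point per gene, with a dashed line of equal change. RBOHA lies in the upper right, RBOHB, RBOHE and RBOHI in the lower left, and FRO1 and SAPK9 lie farthest from 0 near the line.

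For each tested RBOH gene the loci of most similar pattern were ranked by Pearson's r of log2 CPM over the 12 libraries among 22832 other genes, as a description that follows differences between the 4 groups as well as within them. For RBOHA they were LOC_Os08g01740 (r = 0.990), LOC_Os05g50280 (r = 0.990) and LOC_Os11g40009 (r = 0.985). For RBOHB they were LOC_Os05g43280 (r = 0.974), LOC_Os03g42820 (r = 0.971) and LOC_Os10g30910 (r = 0.971). For RBOHE they were LOC_Os01g57350 (r = 0.981), LOC_Os08g36540 (r = 0.973) and LOC_Os01g43380 (r = 0.971). The closest for RBOHI was LOC_Os03g17010 (r = 0.970), followed by LOC_Os04g51560 (r = 0.969) and LOC_Os08g10080 (r = 0.952), and for RBOHC LOC_Os01g28500 (r = 0.942), LOC_Os02g54020 (r = 0.932) and LOC_Os04g53510 (r = 0.926). The files do not pair these loci with names. The first locus was again first for RBOHB and RBOHE without idr1-1 drought replicate 3.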

How the data were processed

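Leaf RNA of 12 libraries was sequenced. The authors deposited unscaled estimated counts per locus, with 1 file a library, and 13.3% to 14.8% of the nonzero values were not whole. Per the submitters' processing notes, the tools were HISAT2 2.1.0 and featureCounts 1.6.3. For build, annotation, strandedness and handling of shared reads, the sources used here give nothing. Reads of overlapping, antisense or near-identical genes, the RBOH family included, could therefore be split. RBOHB and RBOHE had counts that were not whole in some libraries, such as 5771.5 and 474.5 in wild type control replicates 1 and 2. Some of their reads were thus counted in part, and how many is not known. Counts of RBOHA, RBOHC, RBOHH and RBOHI were whole in every library.

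Counts were rounded (a change of at most 0.0011% per library total) and passed to edgeR 4.0.16 in R 4.3.3, where genes were filtered with filterByExpr by group, scaled with TMM and tested by quasi-likelihood in 1 fit of the 4 group means to the 12 libraries. That fit had 8 residual degrees of freedom and a biological coefficient of variation of 0.17. Contrasts, 5 in all, compared the treatments within each genotype, the genotypes within each treatment, and the drought responses of the genotypes. P-values were adjusted by Benjamini-Hochberg over 22833 genes, with a threshold of 0.05. The steps were tested on simulated data. Alternatives used DESeq2 1.42.0, other scalings, filters and fits, and each library left out. No replicates were duplicates, the lowest chi-square per gene between a pair being 8.20.

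RBOH names are those that defined the gene set. The gene table used for names (assembly ASM3414082v1) held 1 of the 6 (RBOHB) and 0 of the files' locus identifiers. Other names were used only where the table held them on the chromosome of the locus and at a similar place along it: 45 were used and 17 left out, and 4 RAC names on chromosome 2 were reassigned by place. Genes named from each list were up to 3 called genes per comparison with the largest change. Members and lists were chosen with earlier results of these data known. No sequence is shown.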

Additional observations from a re-analysis of the deposited data

How the results depend on the processing

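Over the alternatives run for the 5 tested RBOH genes no value that passed the threshold changed sign, and the 24 group levels moved by less than 1 SD under DESeq2 size factors and library size. Counts of all genes called were 10032 and 8129 for drought in wild type and idr1-1, 2391 and 42 for genotype in control and drought, and 11 for the difference of responses. With library size only, the last 3 were 1437, 18 and 2. DESeq2's Wald test gave 555 for genotype under drought and 708 for the difference, with 1 RBOH gene (RBOHE) in the latter. No filter beyond 1 count in total gave 79 and 82, again with 1 RBOH gene. With only the 2 groups in the fit, genotype gave 3822 in control and 3 under drought, and 1 RBOH gene was called for drought in idr1-1 (RBOHB adjusted p = 0.12, RBOHE 0.067). With 1 library left out, genes called ran from 207 to 1879 for genotype in control, from 9 to 1074 under drought and from 0 to 582 for the difference, and RBOH genes called from 0 to 2, 0 to 1 and 0 to 1.

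Replicate numbers gave no clear pairing of the libraries. Deviations of same-numbered libraries correlated at -0.32 to 0.22, with 2 of 18 pairs over 0.1, and 1 of 12 libraries matched best a library of its own number. With 3 replicates per group this is a weak check, and whether same-numbered libraries shared a tank is not given. The replicate block gave 1112 genes for genotype in control, with 1 RBOH gene (RBOHE; RBOHA adjusted p = 0.055), 14 under drought and 0 for the difference.

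The order of the genes by level per kb was not run, since lengths were not used. Depth limits RBOHH, with 0 to 9 counts per library. The causes of these shifts were not tested.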
